A study of Mus musculus with 16 samples.

Results

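Pituitary hormone and lineage genes were examined in hypothalamus RNA of 16 mice. They comprised 9 genes, namely Prl, Gh, Cga, Lhb, Fshb, Tshb, Pou1f1, Pitx1 and Tbx19. They were taken by gene name from the non-control probes of the array, where 10 of 55681 probes carried these names (Cga had 2 probes). Of the 9 genes, 4 were measured well enough to enter the test across 24362 genes, and the other 5 were dim. Each value below is the log2 of the background-subtracted signal minus the log2 of the 75th percentile of the same array, so 0 is the level of a fairly bright probe and −5 is near background. A probe was called well above background on an array where the scanner's own flag said so.

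The anterior pituitary lies under the hypothalamus and makes hormones in separate cell types: prolactin (Prl) in lactotrophs, growth hormone (Gh) in somatotrophs, thyrotropin in thyrotrophs, and the gonadotropins in gonadotrophs. Cga encodes the alpha subunit that thyrotropin and the gonadotropins share, while Tshb, Lhb and Fshb encode their own beta subunits. Pou1f1 encodes the transcription factor that lactotrophs, somatotrophs and thyrotrophs need, Pitx1 an early pituitary homeobox factor, and Tbx19 the factor of corticotrophs. The pars tuberalis, a sleeve of pituitary cells on the median eminence, makes Cga and Tshb and can come away with the hypothalamus at dissection.

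Of the 16 mice, 8 were KO chimeras and 8 control mice, each hybridised to a 1-colour Agilent array. KO chimeras were C57BL/6J mice irradiated with 950 Rad that received whole bone marrow of Adrb1tm1BkkAdrb2tm1Bkk/J mice, which lack the beta-1 and beta-2 adrenergic receptors, injected at the eye. A ratio of 1 to 4 (Adrb1tm1BkkAdrb2tm1Bkk/J to C57BL/6J) and a recovery of 2 to 3 months are stated. The same treatment text and the same irradiated C57BL/6J strain stand on the control mice, which have no entry for a marrow donor, so what marrow they received is not settled. As a model, the chimera limits the deletion to cells derived from donor marrow, and the hypothalamic and pituitary cells of the recipients carry their own C57BL/6J alleles. Age and sex are not given in the labels. The Y-linked gene Ddx3y was well above background on all 16 arrays, at 1.36 to 1.64 in KO chimeras and 1.32 to 1.75 in control mice.

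Between 27276 (KO chimera replicate 1) and 43248 (control replicate 8) of 59305 spots per array were well above background, and the number of arrays limits the precision. The dimmest signal well above background lay between −5.35 and −2.90 on KO chimera arrays and between −5.66 and −4.27 on control arrays. KO chimera replicate 1 had the highest of these floors. KO chimera replicate 4 was alone on its slide, so its slide and the animal cannot be told apart. Of 15 hypothalamus marker genes 14 entered the test, among them Hcrt (orexin) at 6.85 ± 0.85 in KO chimeras and 7.32 ± 0.67 in control mice (SD, n = 8 each). All 8 thalamus and all 7 choroid plexus marker genes entered it too, so this count does not tell the tissues apart.

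The promoter windows of Prl, Cga and Tshb are shown because Prl and Cga varied together between animals and Cga and Tshb stood out in the same animal. Each runs 5′ to 3′ on the strand of the gene, from 250 bases before to 50 bases after the RefSeq start (GRCm38.p6), at chr13:27057320-27057619 (plus strand) for Prl, chr4:34893529-34893828 (plus strand) for Cga and chr3:102782665-102782964 (minus strand) for Tshb. Capitals mark matches on either strand to ATGNATA, the core of a POU1F1 site, and to TATAAA, the TATA box.
Prl: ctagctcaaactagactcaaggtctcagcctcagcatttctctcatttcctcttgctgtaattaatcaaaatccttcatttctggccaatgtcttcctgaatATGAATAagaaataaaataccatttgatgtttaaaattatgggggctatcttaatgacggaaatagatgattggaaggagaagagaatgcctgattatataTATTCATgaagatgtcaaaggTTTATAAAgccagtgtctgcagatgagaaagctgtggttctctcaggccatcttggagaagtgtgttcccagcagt
Cga: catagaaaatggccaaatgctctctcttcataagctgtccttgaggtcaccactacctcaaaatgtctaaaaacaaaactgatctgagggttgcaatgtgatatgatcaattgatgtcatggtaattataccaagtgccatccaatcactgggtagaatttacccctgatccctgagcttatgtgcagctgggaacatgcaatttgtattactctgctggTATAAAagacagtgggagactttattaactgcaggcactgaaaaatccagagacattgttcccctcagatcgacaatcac
Tshb: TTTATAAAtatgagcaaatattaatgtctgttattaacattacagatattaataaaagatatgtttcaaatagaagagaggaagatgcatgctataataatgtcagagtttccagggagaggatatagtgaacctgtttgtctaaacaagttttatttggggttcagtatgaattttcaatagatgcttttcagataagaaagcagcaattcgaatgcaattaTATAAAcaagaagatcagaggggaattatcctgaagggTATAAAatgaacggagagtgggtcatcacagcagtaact
In the Prl window ATGNATA matched at −148 on the gene's strand and at −47 on the other strand, counted from the RefSeq start. TATAAA matched at −24 in Prl, −30 in Cga and −27 in Tshb, with further matches in Tshb at −248 and 12. In Prl and at the far end of the Tshb window a match on each strand overlapped. Of 32851 promoter windows of this length, 8.84% held ATGNATA and 13.6% held TATAAA. A match describes letters and is not a binding site. RefSeq windows were matched for 7 of the 9 genes.

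The probe for Gh is shown because its position in the files (mm9) covers more genome than the probe is long. The Gh probe of 60 bases covers 244 bases (chromosome 11, 106162492 to 106162735, minus strand).
Gh probe: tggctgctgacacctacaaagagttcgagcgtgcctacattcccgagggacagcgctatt
The Tshb probe, also of 60 bases, covers 485 bases (chromosome 3, 102581608 to 102582092, minus strand), and its sequence is not shown. The exon or UTR that each probe lies in was not analysed here.

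No difference between KO chimeras and control mice passed the test for any hormone or lineage gene. Of the 4 genes tested, 0 were called higher and 0 lower (limma, adjusted p under 0.05), where 3.78% of all 24362 genes were called (1.02% higher, 2.77% lower in KO chimeras). None of the 4 had an unadjusted p under 0.05 either. Their median difference was 0.02 on the log2 scale, beside 0.00 over all genes tested. When dim probes were kept, 0 of 9 genes were called, where 1.71% of 34598 genes were called. The groups overlapped on all 10 probes. The share of all genes on which they overlapped is not given here, so this count is only a description. Animals differed in how many of the probes were detected: 8 of the 10 were well above background in KO chimera replicate 4 and 6 in KO chimera replicate 8, against 1 in KO chimera replicate 1. The control mice ranged between 2 and 5. The array of KO chimera replicate 1 had the fewest spots well above background (27276) and the highest floor (−2.90). That of KO chimera replicate 8 had 42649 such spots. What part the sensitivity of the arrays had in these counts was not tested.

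**Figure D1:**
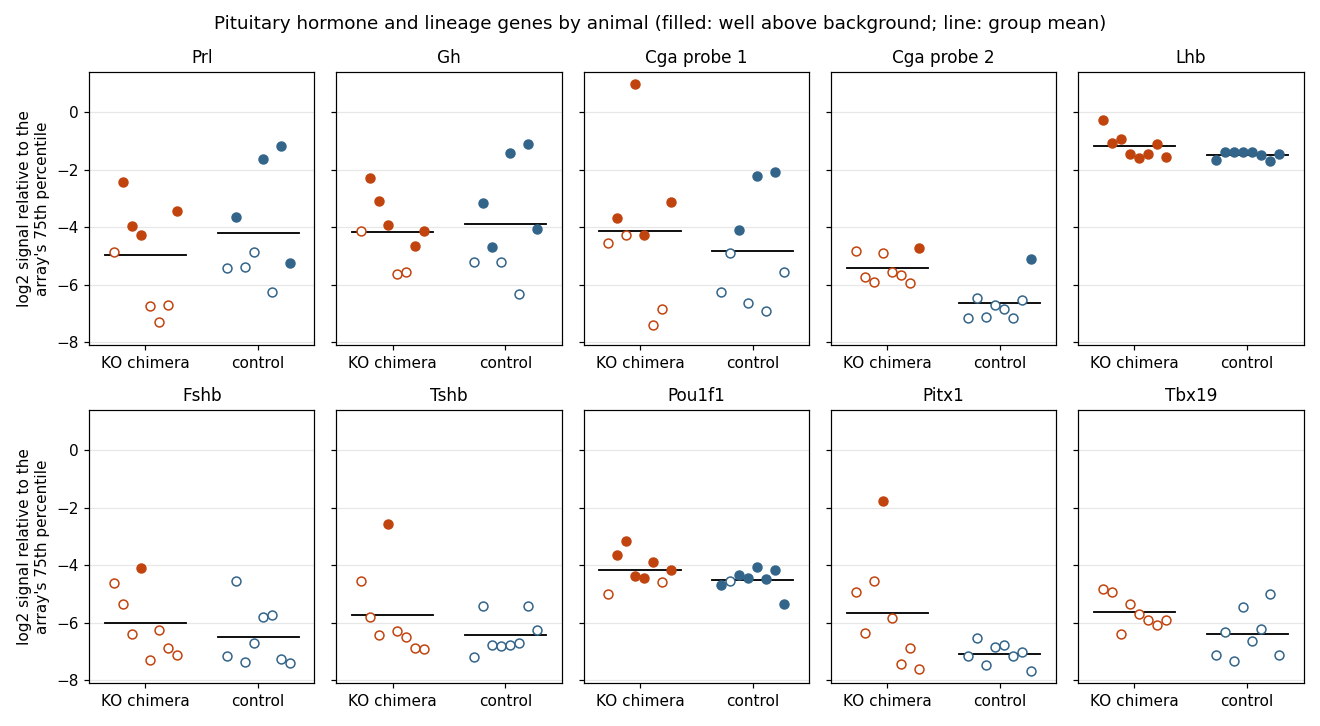
Level of each probe in each animal (log2 signal relative to the 75th percentile of the array), KO chimeras left and control mice right; replicates 1 to 8 run left to right, filled points are well above background, open points are not, and the line is the group mean. Prl, Gh and Cga probe 1 spread over several log2 units in both groups, Lhb stays between −1.70 and −0.29, and the highest points for Cga probe 1, Tshb, Fshb and Pitx1 are KO chimera replicate 4.

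Prl, which encodes the hormone of lactotrophs, had the widest spread of the 4 genes tested. The Prl probe (chromosome 13, mm9, 27156972 to 27157031, plus strand) measured −7.29 at the lowest, −4.58 at the median and −2.44 at the highest in KO chimeras. In control mice the values were −6.27, −5.06 and −1.19. It was well above background in 4 KO chimeras (replicates 2, 3, 4 and 8) and in 4 control mice (replicates 2, 5, 7 and 8). The highest animals were control replicates 7 and 5, followed by KO chimera replicate 2 at −2.44 and KO chimera replicate 8 at −3.42, and the groups overlapped over most of their range. Prl averaged −4.96 ± 1.77 in KO chimeras and −4.21 ± 1.88 in control mice (SD, n = 8 each). The log2 difference was −0.76 ± 0.84 (SE, 95% confidence interval −2.53 to 1.01), and it did not pass (limma adjusted p = 0.643). Without control replicate 7 it was −0.32. Within the 5 slides that held both groups the difference ran from −5.09 on slide 5 to 1.33 on slide 6, with both signs. Less RNA per pituitary cell and fewer pituitary cells in the sample cannot be told apart in tissue RNA.

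Gh, which encodes the hormone of somatotrophs, followed the same animals. In KO chimeras it measured −5.62 at the lowest, −4.13 at the median and −2.29 at the highest. In control mice it measured −6.34, −4.38 and −1.10. Gh was well above background in 5 KO chimeras and 5 control mice, and control replicates 7 and 5 were again the highest, with KO chimera replicate 2 next. It averaged −4.17 ± 1.13 in KO chimeras and −3.90 ± 1.88 in control mice (SD, n = 8 each). The log2 difference was −0.27 ± 0.71 (SE, 95% confidence interval −1.78 to 1.23; limma adjusted p = 0.862). The sign turned without control replicate 5 (0.08) or control replicate 7 (0.13), and within slides the difference ran from −3.24 to 0.98.

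Prl and Gh varied together across animals. Across all 16 animals Pearson's r was 0.920 (permutation p = 1e-05, the smallest these permutations can give) and Spearman's rho 0.874 (permutation p = 3e-05). Adjusted over the 12 relations computed in this family, these were 0.00012 and 0.00036. Within KO chimeras r was 0.906 (exact permutation p = 0.00154) and within control mice 0.969 (exact permutation p = 0.000521). It was 0.842 without control replicates 7 and 5, the animals farthest from the median of Prl (permutation p = 0.00022). Within scan day 1 r was 0.853 (exact permutation p = 0.00675) and rho 0.643 (exact permutation p = 0.0962), and within scan day 2 r was 0.954 (exact permutation p = 0.000967). In the 8 animals where both genes were well above background r was 0.916, given as a description. In the other 8 animals dim values share the background of their array, and its part in the relation was not tested.

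The SD of Prl within groups was 1.82, where the median over all 24362 genes was 0.205, and 5 genes had a larger one. Ttr, Plekha1 and Foxa1 were among them, named after their values were seen. Gh had an SD of 1.55 within groups, and 8 genes had a larger one, Prl and Agrp among them. Set only against genes of a similar mean level (within 1 log2 unit), 2 of 3113 genes varied more than Prl and 4 of 4643 more than Gh.

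**Figure D2:**
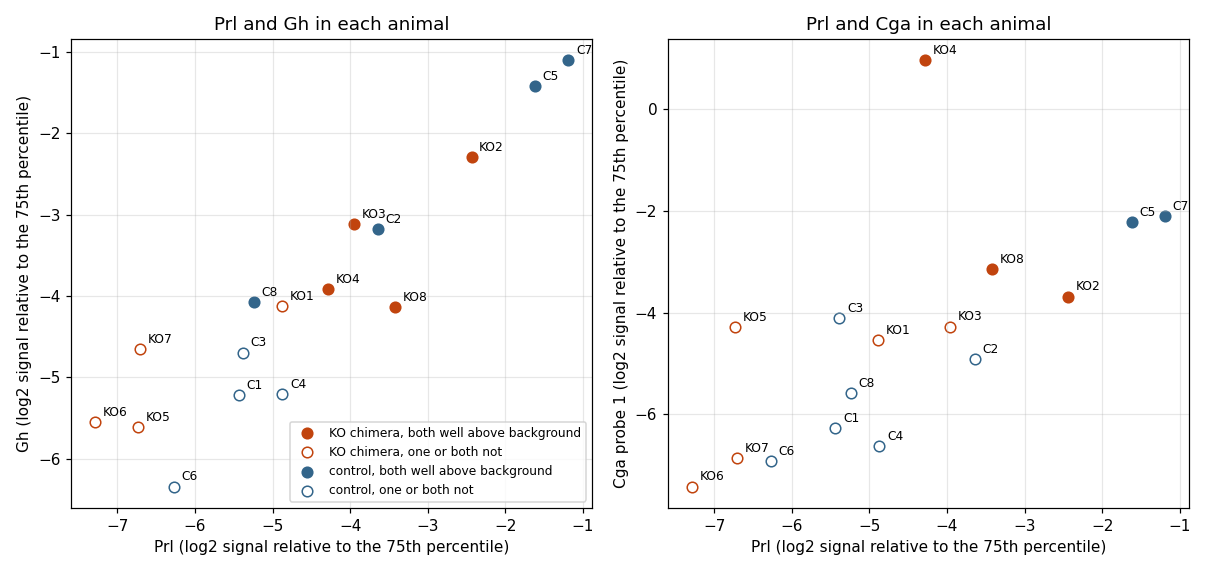
Each point is 1 animal (KO: KO chimera, C: control, with the replicate number), with Prl on the horizontal axis and Gh (left) or Cga probe 1 (right) on the vertical axis, all as log2 signal relative to the 75th percentile. Prl and Gh lie along a line in both groups, with C7 and C5 at the top, whereas KO4 lies above all others in Cga at a middling Prl.

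Cga, the shared alpha subunit, varied as widely as Prl and was far higher in KO chimera replicate 4 than in any other animal. Cga probe 1 (chromosome 4, mm9, 34854544 to 34854603, plus strand) measured −7.42 at the lowest, −4.28 at the median and 0.97 at the highest in KO chimeras. In control mice it measured −6.92, −5.24 and −2.10. It was well above background in 4 KO chimeras (replicates 2, 4, 5 and 8) and 3 control mice (replicates 3, 5 and 7), 7 arrays in all, so it was not tested in the fit. With every animal the mean difference was 0.69 on the log2 scale, and an exact two-sided permutation test over 12870 assignments gave p = 0.563. Without KO chimera replicate 4 it was −0.05 (exact permutation p = 0.959).

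Prl and Cga correlated at r = 0.650 over all 16 animals (permutation p = 0.00614, adjusted 0.0368) and rho = 0.747 (permutation p = 0.00143, adjusted 0.00858). Without KO chimera replicate 4, r was 0.829 (permutation p = 0.00018), and without control replicates 7 and 5 it was 0.553 (permutation p = 0.0359). Within KO chimeras r was 0.591 (exact permutation p = 0.114) and within control mice 0.889 (exact permutation p = 0.00675), and the difference between the groups was not tested. Gh and Cga correlated at r = 0.612 (permutation p = 0.0115, adjusted 0.0460) and rho = 0.700 (permutation p = 0.00339, adjusted 0.0136), and without control replicates 7 and 5 r was 0.497 (permutation p = 0.0685) and rho 0.591 (permutation p = 0.028). Without KO chimera replicate 4, r was 0.798 (permutation p = 0.00045). Within KO chimeras it was 0.401 (exact permutation p = 0.327) and within control mice 0.926 (exact permutation p = 0.00248). Within scan day 1 the r of Prl and Cga was 0.891 (exact permutation p = 0.00379) and within scan day 2 it was 0.627 (exact permutation p = 0.0989). For Gh and Cga it was 0.797 (exact permutation p = 0.018) and 0.615 (exact permutation p = 0.105). Cga probe 1 was well above background on only 7 of the 16 arrays. Elsewhere its dim values share the background of their array, and the part of that background in these relations was not tested. Both relations with Cga were added after the values were seen.

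KO chimera replicate 4 was the highest animal for Cga probe 1 and the only animal with Pitx1, Tshb or Fshb well above background, but it was not the highest for Prl or Gh. Its Cga level of 0.97 lay 3.07 log2 units (8.37-fold) above the next animal, control replicate 7, and corresponded to a mean spot signal of 762 over a local background of 21. It measured −1.75 for Pitx1, −2.56 for Tshb and −4.11 for Fshb. No margin is given for these 3 genes, because no other animal was well above background, and the dimmest signal well above background on the array of KO chimera replicate 1 (−2.90) was brighter than that Fshb level.

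By contrast, Prl in KO chimera replicate 4 was the 7th of the 16 animals (−4.28) and Gh the 6th (−3.91). Of the pars tuberalis genes in the test, Mtnr1a in KO chimera replicate 4 was the 11th (−3.67) and Eya3 the 6th (1.64). Of the 35391 probes well above background on that array, 104 measured at least 2 log2 units higher there than on any other array. That count was 185 of 24969 in KO chimera replicate 1 and 108 of 33003 in KO chimera replicate 3, and 2 to 19 in the other animals. Whether its slide had a part in these values was not tested, because no other array lay on it.

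The dim probes had these group values. Tshb measured −6.90 at the lowest, −6.36 at the median and −2.56 at the highest in KO chimeras, and −7.19, −6.72 and −5.40 in control mice. Fshb measured −7.29, −6.32 and −4.11 in KO chimeras and −7.39, −6.91 and −4.54 in control mice. Pitx1 measured −7.62, −6.10 and −1.75 in KO chimeras and −7.68, −7.08 and −6.53 in control mice. All 3 were well above background on 0 control arrays, and the KO chimera mean was below the mean floor of the control arrays (−4.90), so no fold is given.

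**Figure D3:**
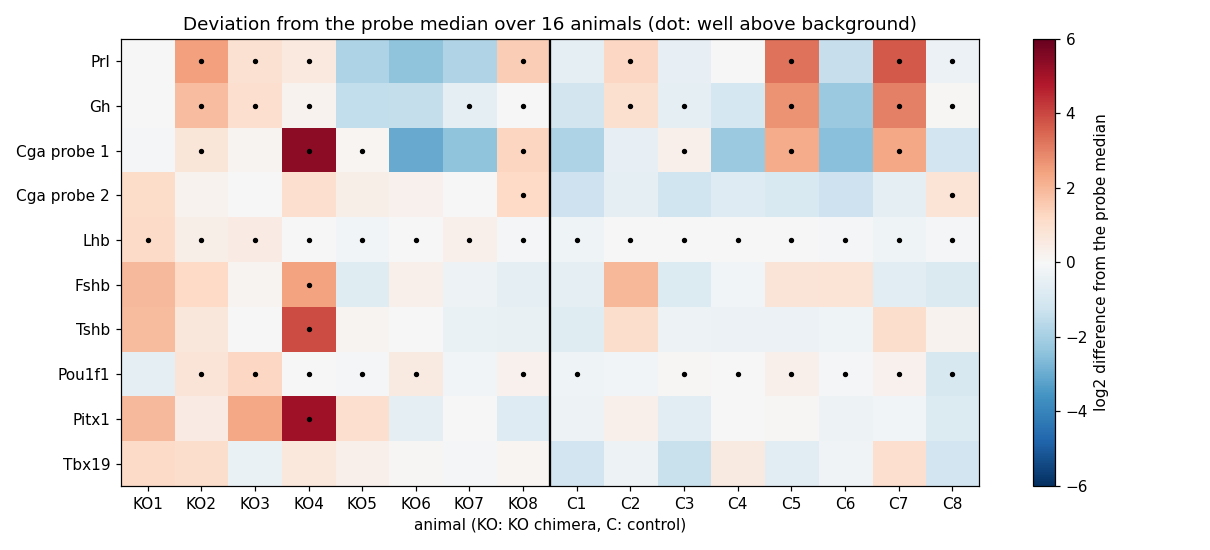
Difference of each animal from the median of the probe over 16 animals (log2, colour scale from −6 to 6), KO chimeras left of the line and control mice right; dots mark values well above background. C5 and C7 are red in Prl, Gh and Cga probe 1, while KO2 is red in Prl and Gh and only faintly so in Cga probe 1. KO4 is deep red in Cga probe 1, Tshb and Pitx1 while its Prl and Gh are near the median.

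Cga probe 2 (chromosome 4, mm9, 34842664 to 34842723, plus strand) was dim in nearly every animal. It measured −5.95 at the lowest, −5.62 at the median and −4.74 at the highest in KO chimeras. In control mice it measured −7.16, −6.79 and −5.11. Only 1 KO chimera and 1 control mouse, replicate 8 in both groups, were well above background on it, so nearly all of these values are not well above background. The difference of 1.23 ± 0.28 (SE) had an exact permutation p of 0.00218, and limma over every probe with no filter gave an adjusted p of 0.0559. It was 0.16 with normexp background correction (exact permutation p = 0.382) and 0.34 in the deposited table (exact permutation p = 0.11). With quantile normalization it was 0.83 (exact permutation p = 0.0138), and with each animal left out it ran from 1.13 to 1.44. KO chimera replicate 4, the highest animal on probe 1, measured −4.91 on probe 2.

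Lhb, the beta subunit of luteinising hormone, was well above background on all 16 arrays, and its values lay closer together in control mice than in KO chimeras. Its probe (chromosome 7, mm9, 52676685 to 52676744, plus strand) measured −1.60 at the lowest, −1.28 at the median and −0.29 at the highest in KO chimeras. In control mice it measured −1.70, −1.44 and −1.39. KO chimera replicate 1 was the highest animal, and the groups overlapped. Lhb averaged −1.19 ± 0.44 in KO chimeras and −1.49 ± 0.13 in control mice (SD, n = 8 each). The log2 difference was 0.30 ± 0.15 (SE, 95% confidence interval −0.02 to 0.63; limma adjusted p = 0.265). Without KO chimera replicate 1 it was 0.18. Its SD within groups was 0.32, and 935 of 5688 genes of a similar mean level varied more. Its r with Prl was −0.02 and with Gh 0.10 (permutation p = 0.943 and 0.72, adjusted p = 0.944 for both).

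Pou1f1, the factor upstream of Prl, Gh and Tshb, was dim, and its correlations with Prl and Gh did not pass. Its probe (chromosome 16, mm9, 65534256 to 65534315, plus strand) was well above background in 6 KO chimeras and 7 control mice. It measured −4.99 at the lowest, −4.25 at the median and −3.16 at the highest in KO chimeras. In control mice it measured −5.35, −4.46 and −4.07. The highest animals were KO chimera replicates 3 and 2, and the groups overlapped. The log2 difference was 0.36 ± 0.23 (SE, 95% confidence interval −0.13 to 0.84; limma adjusted p = 0.394), and with quantile normalization it was −0.03. With Prl its r was 0.331 (permutation p = 0.214, adjusted 0.514) and with Gh 0.338 (permutation p = 0.2, adjusted 0.514). Its SD within groups was 0.50, and 1554 of 3846 genes of a similar mean level varied more.

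Tbx19, the factor of corticotrophs, was well above background on 0 of the 16 arrays. It measured −6.40 at the lowest, −5.79 at the median and −4.82 at the highest in KO chimeras, against −7.34, −6.48 and −4.99 in control mice. Because no animal was well above background, no fold is given. Pomc, the hormone precursor that corticotrophs, melanotrophs and hypothalamic neurons all make, was bright in every animal, at 2.95 to 4.33 in KO chimeras and 2.49 to 3.71 in control mice. Its log2 difference was 0.59 ± 0.24 (SE; limma adjusted p = 0.168).

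Pituitary genes were also read from 3 lists, in which Cga and Tshb count among the pars tuberalis genes and Pomc stands in both the anterior pituitary and the intermediate lobe list. Of the 11 further anterior pituitary genes reported here 8 were tested and 0 were called, and their median difference was 0.18 (all genes 0.00). Among them Lhx3, Lhx4, Nr5a1, Foxl2, Trhr and Pomc were well above background on every array, where Prl was on 8 of 16. Foxl2 averaged 5.89 in KO chimeras and 5.99 in control mice. What part of these signals came from pituitary tissue was not tested. Of 5 pars tuberalis genes 2 were tested (Mtnr1a and Eya3) and 0 were called, with a median of −0.04. Of 4 intermediate lobe genes all 4 were tested and 0 were called, with a median of 0.14. Eya3 had a difference of −0.24 ± 0.07 (limma adjusted p = 0.0589), and Lhx3, a LIM homeobox factor of the early pituitary, one of 0.52 ± 0.18 (limma adjusted p = 0.111).

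Of the receptors of releasing hormones, Trhr was well above background on every array (0.33 ± 0.24 in KO chimeras, 0.43 ± 0.36 in control mice, SD, n = 8 each). Ghrhr was well above background in 2 KO chimeras and 3 control mice, and Gnrhr in 0 animals of either group.

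**Figure D4:**
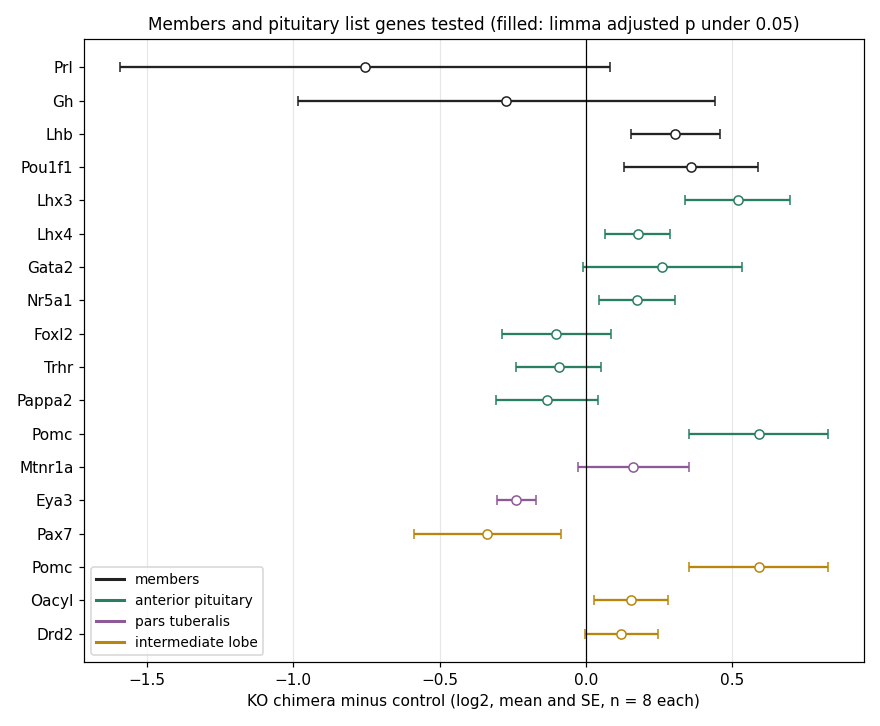
Log2 difference, KO chimera minus control, with its SE (n = 8 each), for the 4 hormone and lineage genes tested and for the genes of the anterior pituitary, pars tuberalis and intermediate lobe lists that were tested and are reported here; filled points would have a limma adjusted p under 0.05. No point is filled, and Prl and Gh have the widest bars.

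No correlation of Prl with markers of hypothalamus or the tissues around it passed over all animals. The score of a list is the mean of its tested genes after each gene was centred on its own mean over the animals. Like the relations with Cga, those of Prl with these scores were added after the values were seen. With Prl, r was 0.182 for thalamus, −0.0486 for choroid plexus, 0.230 for tanycytes of the median eminence and 0.0869 for hypothalamus (permutation p = 0.498, 0.862, 0.389 and 0.75; adjusted p = 0.854, 0.944, 0.778 and 0.944). Without control replicates 7 and 5, r was −0.492 for thalamus (permutation p = 0.0737), so its sign turned, −0.149 for choroid plexus (permutation p = 0.615), 0.503 for tanycytes (permutation p = 0.0683) and 0.427 for hypothalamus (permutation p = 0.129). The thalamus score ran from −1.48 to 0.24 in KO chimeras and from −0.94 to 1.54 in control mice, and its 8 genes, all negative, had a median difference of −0.92. Of these, 2 were called lower, where 2.77% of all genes were, and 0 higher: Prkcd (−1.87 ± 0.49, limma adjusted p = 0.0431) and Adarb1 (−0.62 ± 0.15, limma adjusted p = 0.0375). The highest thalamus scores, 1.54 and 1.53, were those of control replicates 7 and 5, the same animals that were highest in Prl and Gh. Between thalamus score and Prl, r was −0.646 within KO chimeras (exact permutation p = 0.091) and 0.652 within control mice (exact permutation p = 0.0794), and the difference between the groups was not tested. The tanycyte score ran from −0.36 to 0.83 in KO chimeras and from −0.64 to 0.83 in control mice, and its 7 genes had a median difference of 0.45, with 5 positive. Of these only Dio2, a deiodinase, was called, in the lower direction (−0.76 ± 0.17; limma adjusted p = 0.0265), where 2.77% of all genes were called lower. The highest tanycyte score was 0.832 in KO chimera replicate 4, with control replicate 2 next at 0.830. KO chimera replicate 4 also had the highest hypothalamus score (0.724).

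Genes whose pattern over the 16 animals was most like that of a hormone or lineage gene were sought among 16858 genes with a symbol, by Pearson's r and with no test. For Prl they were Pou4f1 (0.795), Trim67 (0.787) and Smpd3 (0.785). For Gh they were Smpd3 (0.836), Pou4f1 (0.831) and Crybg1 (0.812), so Gh and Prl shared 2 of 3, and none of these was as close to either as they were to each other. For Lhb they were Hspa1l (0.934), Hoxa7 (0.882) and Tor1a (0.869). For Pou1f1 they were Vmn2r85 (0.869), Lpar5 (0.831) and Olfr608 (0.829). The points share their arrays, and none of these genes was called between the groups (limma adjusted p of 0.143 to 0.831).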

How the data were processed

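Total RNA of 16 hypothalami was labelled with Cy3 and hybridised, 1 animal per array. The authors deposited the intensity of each spot on a linear scale, background-subtracted, made with Agilent's Feature Extraction (10.7 in the submitters' processing notes, 10.1.1.1 in the file headers). A deposited table of log2 values came from a step between arrays that the sources do not give (lowest correlation with the scanner's log2 values 0.9996, array medians 5.21 to 5.26, 22.3% of values at a floor of 2.2).

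Control spots were left out, log2 was taken, the 75th percentile of each array was subtracted and spots of a probe were averaged. Of 160 values of the hormone and lineage genes 0 were saturated and 0 outliers. Probes that reached well above background on 8 or more arrays were kept and the brightest probe per gene was tested (24362 genes) with limma 3.58.1 (R 4.3.3) and Benjamini-Hochberg adjustment at 0.05. Exact permutation tests were two-sided; correlations used 100000 permutations, or all orders with 8 animals (Python 3.11.15, scipy 1.17.1). The fit was tested on simulated data.

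Some results, list genes among them, are not reported here. The genes, the lists and the tests were chosen with earlier results of these data known. Named in the text are all 9 genes and, for each tested gene, the 3 with the highest r. Of the list genes well above background on at least 8 arrays, only some are named. Ttr, Plekha1, Foxa1, Agrp, Ghrhr, Gnrhr and Ddx3y were named after their values were seen. Groups came from the labels, which do not say whether animals shared marrow donors. Alternatives were other normalizations, the deposited table, other filters, all probes of a gene, slide, scan day or replicate number as a block, eBayes and weight settings, and each animal left out. Animals with the same replicate number share only that number: the correlation of their deviations was −0.07 to 0.24, over 0.1 in 3 of 8 pairs.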

Additional observations from a re-analysis of the deposited data

Results flagged for a closer look

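Of 20 groups of 8 animals (10 probes in each group of mice), 2 had an animal farther from its neighbours than the usual limit of Dixon's test for outliers. Chance flags about 1 in 20 such groups. On Cga probe 2, control replicate 8 was far above the other control mice at −5.11, and it was the only control mouse well above background there. For Pou1f1, control replicate 8 was far below the other control mice at −5.35. Both were the same animal, whose array had the most spots well above background (43248). KO chimera replicate 4 stayed within that limit on Cga probe 1.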

How the results depend on the processing

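In every setting run, 0 of the hormone and lineage genes were called, with 1 to 9 of them tested. Within scan day 1 or 2, where 0 and 7 of all genes were called, this count could hardly have come out otherwise. The differences of Prl (−1.12 to −0.19) and Lhb (0.18 to 0.41) kept their sign in all settings, and the correlation of Prl and Gh stayed between 0.842 and 0.979. With each animal left out, Gh ran from −0.62 to 0.13 (−0.27 in all animals) and Cga probe 1, outside the test, from −0.046 (without KO chimera replicate 4) to 1.15. Pou1f1 turned to −0.032 with quantile normalization. Fshb was well above background on 1 array and Tbx19 on 0, so differences between their values are not read as folds. These differences were 0.49 for Fshb and 0.77 for Tbx19. In the deposited table, where low values share a floor, they were −0.0011 and −0.034, and the cause was not tested. Of all genes 922 were called, against 527 with quantile normalization, 254 with normexp (25 higher, 9.84% of the calls, against 26.9%), 536 in the deposited table, 593 with no filter (40.8% higher), 476 with slide as a fixed block, 0 within scan day 1 (limma, 2836 at an unadjusted p under 0.05) and 7 within scan day 2. With each animal left out 358 to 1026 were called, over 1.5 times fewer without control replicate 1 (538), 5 (360) or 7 (358) and without KO chimera replicate 2 (417), 4 (579), 6 (403) or 7 (596). The replicate block gave 789 genes and 0 hormone and lineage genes, and 2 of 8 animals correlated best with their own number. Dim probes limit Tshb, Fshb, Pitx1, Tbx19 and Cga probe 2 most, since few or none of their values stood above background.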
